A study of Mus musculus with 6 samples.

Results

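The genes described here are 10 transcription regulators that act in the making of B cells: Ebf1, Pax5, Foxo1, Ikzf1, Ikzf3, Tcf3, Pou2af1, Bach2, Lef1 and Spib. They were chosen by name, and all 10 were among the 20097 mouse genes with a deposited value and among the 15410 genes tested. All are protein-coding genes; positions below are those of GENCODE M21 on GRCm38. Except for Tcf3 and Spib, each overlaps another annotated gene (for Bach2 the antisense gene Bach2os among them), and whether reads of these stranded libraries were counted by strand is not given in the sources used here, so some reads could belong to a neighbour. RNA was measured by poly-A sequencing of c-Kit+ bone marrow cells, a fraction that carries the surface receptor encoded by Kit and is rich in blood stem and progenitor cells. The design has 3 libraries of genotype WT and 3 of genotype Runx1 KO (Runx1, a blood transcription factor gene, knocked out), and it asks how these cells differ in expression. The labels give no age, sex, strain or treatment, and no account of how Runx1 was disrupted. The labels also do not say whether the replicates came from separate animals, so the p-values measure only the spread between these samples, which may be technical.

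B cells arise in the bone marrow from lymphoid progenitors in an ordered way. The E protein E2A (encoded by Tcf3), Ikaros (Ikzf1) and FOXO1 act early, in progenitors that have not chosen the lineage, and help to turn on Ebf1. EBF1 then starts the B-cell programme, activates Pax5 and is itself sustained by PAX5, which closes off other fates. Aiolos (Ikzf3), the coactivator OBF-1 (Pou2af1), BACH2, LEF1 and SPI-B serve the later steps, from the precursor stages to the mature B cell.

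Every library was deep and of similar size, with 23297526 to 26793380 reads over the listed genes. The values are normalised read counts, which are reads per gene divided by a size factor of the library between 0.956 and 1.0425. Kit was present in all 6 libraries, at 7979 to 8471 in those labelled WT and 11507 to 13684 in those labelled Runx1 KO. Runx1 itself was higher, not lower, under the label Runx1 KO: it had 3031, 2799 and 3497 normalised reads under the label WT and 6648, 6720 and 5830 under the label Runx1 KO (log2 change 1.04, SE 0.10, limma adjusted p 0.00163). This goes against the label if a knockout is taken to remove the transcript, and a value per gene cannot show a missing exon. The groups are therefore named by their labels, and every direction is that of Runx1 KO relative to WT. On the first principal component of the tested genes, which held 69.2% of the variance, Runx1 KO replicate 1 stood at 22.82, apart from Runx1 KO replicates 2 and 3 at 64.51 and 60.78. WT replicate 1 stood at -64.98 on it, apart from WT replicates 2 and 3 at -39.82 and -43.31. In the B-lineage genes WT replicate 1 also stood apart from its group, as the values below show.

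Of the 10 regulators, 7 fell past the threshold, 0 rose and 3 did not pass. The threshold is an adjusted p under 0.05 in limma, fitted to log2(normalised read count + 1) over all 15410 genes. Of all these tested genes, 11.3% fell past it and 10.6% rose past it, so 0 rises among 10 is not far from that share. The median log2 change over the 10 genes was -3.54, beside -0.004 over all tested genes. The sizes ranged widely: Spib, Pax5, Ebf1, Pou2af1 and Ikzf3 were between 13.7-fold and 40.6-fold lower by the ratio of the group means, Bach2 was 6.45-fold lower, and Ikzf1 only 1.24-fold lower. Tcf3 and Foxo1 did not pass, and neither did Lef1. Without adjustment, 8 fell with a limma p under 0.05 and 0 rose. The share of all tested genes at that unadjusted level was not computed, so this count has no background beside it. In 8 of the 10 genes the 3 libraries labelled Runx1 KO all lay below the 3 labelled WT, which held for 21.9% of all tested genes; in either direction the groups did not overlap for 43.3%.

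**Figure D1:**
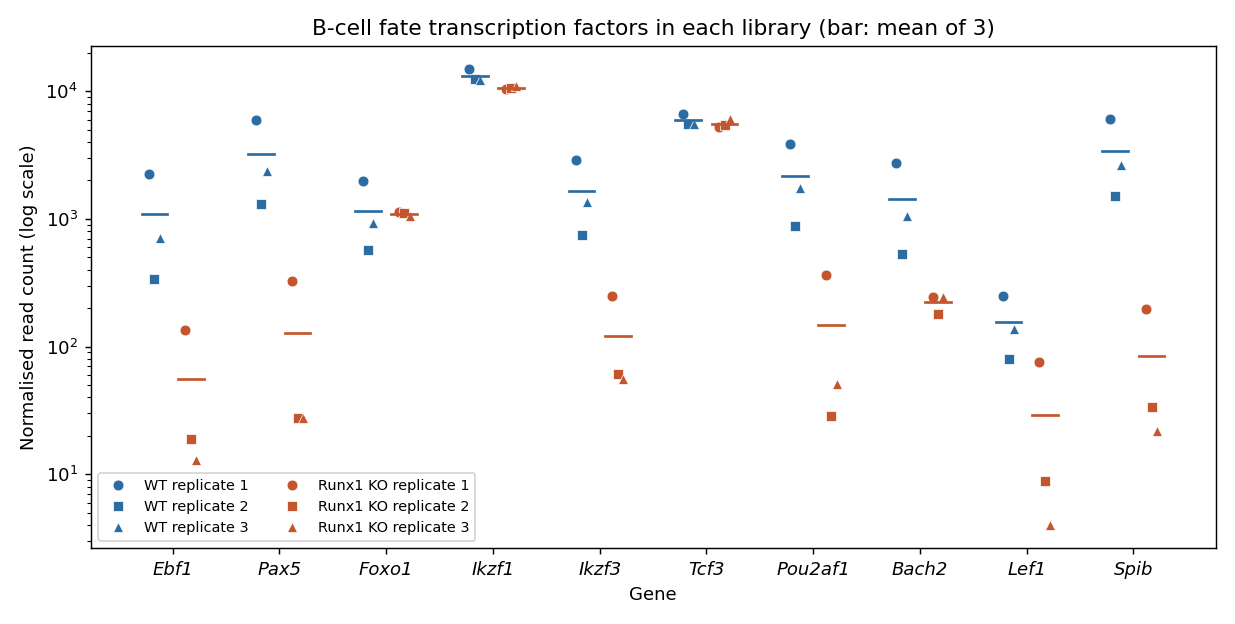
Normalised read count (log axis) of the 10 regulators, with 1 point per library and a bar at the mean of each group of 3 libraries. Spib ran from 1507 to 6036 under the label WT and from 21.9 to 196 under the label Runx1 KO, while Tcf3 ran from 5251 to 6615 over all 6 libraries.

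The count of 7 depended on which libraries were kept. Leaving out WT replicate 3, Runx1 KO replicate 2 or Runx1 KO replicate 3 gave 3 falling regulators each, which were Pax5, Ikzf3 and Spib; leaving out WT replicate 1 or WT replicate 2 gave 6, and leaving out Runx1 KO replicate 1 gave 7. Without WT replicate 1 and Runx1 KO replicate 1 together, an alternative chosen after seeing the data, the count was 7 again. Pax5, Ikzf3 and Spib passed in all 6 of these leave-one-out fits (1 library dropped in each), with adjusted p values of limma up to 0.0498, 0.0427 and 0.0287. Over all tested genes the falls also changed in number, from 1739 of 15410 with all libraries. They were 1173 of 15726 without WT replicate 3, 735 of 15794 without Runx1 KO replicate 2 and 908 of 15797 without Runx1 KO replicate 3. Without WT replicate 1, WT replicate 2 or Runx1 KO replicate 1 they were 1261 of 15715, 1226 of 15816 and 1963 of 15819.

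The early regulators changed least. Tcf3 (ENSMUSG00000020167, chr10:80409514-80433647, minus strand) encodes the E proteins E12 and E47, which bind E-box sequences and open the lymphoid programme. It had 6615, 5588 and 5585 normalised reads over the WT-labelled libraries and 5251, 5394 and 6054 in those labelled Runx1 KO. The groups overlapped, and the log2 change was -0.09 (SE 0.09, 95% interval -0.30 to 0.12, limma adjusted p 0.506).

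Ikzf1 (ENSMUSG00000018654, chr11:11685003-11772926, plus strand) encodes Ikaros, a zinc-finger protein needed for all lymphoid lineages and active in multipotent progenitors. It had 14996, 12485 and 12199 normalised reads under the label WT and 10430, 10567 and 11062 under the label Runx1 KO. The groups did not overlap, yet the fall was small, at -0.30 on the log2 scale (SE 0.09, limma adjusted p 0.0479). It passed in 0 of the 6 leave-one-out fits, with adjusted p values from 0.0543 to 0.145, and it did not pass when library totals were used for scaling (0.075).

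Foxo1 (ENSMUSG00000044167, chr3:52268336-52353221, plus strand) encodes a forkhead factor that turns on Il7r and the Rag genes in B-cell precursors. It had 1974, 572 and 924 normalised reads over the WT-labelled libraries and 1130, 1109 and 1053 in those labelled Runx1 KO. The WT libraries spanned a 3.45-fold range with WT replicate 1 highest, whereas the others spanned 1.07-fold and lay inside the WT range. The log2 change was 0.11 (SE 0.39, limma adjusted p 0.86), and its 95% interval from -0.82 to 1.04 includes sizeable changes either way. Without WT replicate 2 its sign turned, at -0.30.

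The factors of commitment fell steeply. Ebf1 (ENSMUSG00000057098, chr11:44617317-45008091, plus strand) encodes the factor that specifies the B lineage. It had 2256, 338 and 704 normalised reads over the WT-labelled libraries (1099 ± 1018, SD, n = 3) and 135, 18.8 and 12.9 over the Runx1 KO-labelled ones (55.6 ± 68.8, SD, n = 3). The lowest WT library was still 2.51 times the highest of the others. The log2 change was -4.60 (SE 0.98, limma adjusted p 0.0186). The call was lost without WT replicate 3 (0.0502), Runx1 KO replicate 2 (0.0721) or Runx1 KO replicate 3 (0.0599).

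Pax5 (ENSMUSG00000014030, chr4:44524757-44710487, minus strand) encodes the factor that holds cells to the B lineage. It had 5967, 1304 and 2359 normalised reads under the label WT (3210 ± 2446, SD, n = 3) and 325, 27.7 and 27.8 under the label Runx1 KO (127 ± 172, SD, n = 3). Runx1 KO replicate 1 held 11.7 times the mean of the other two, so the group mean mostly reflects that library. The log2 change was -5.35 (SE 1.00, limma adjusted p 0.0123).

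Spib (ENSMUSG00000008193, chr7:44525993-44532071, minus strand) had the largest fall of the 10. It encodes an ETS-family relative of PU.1 that acts in B cells and plasmacytoid dendritic cells. It had 6036, 1507 and 2646 normalised reads over the WT-labelled libraries (3396 ± 2356, SD, n = 3) and 196, 33.7 and 21.9 over the Runx1 KO-labelled ones (83.7 ± 97.1, SD, n = 3). The lowest WT library was 7.7 times the highest of the others. The log2 change was -5.75 (SE 0.84, limma adjusted p 0.0057).

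Pou2af1 (ENSMUSG00000032053, chr9:51213708-51240080, plus strand) encodes OBF-1, a coactivator that joins octamer-binding factors on immunoglobulin promoters. It had 3845, 875 and 1737 normalised reads under the label WT and 362, 28.7 and 50.7 under the label Runx1 KO. The groups did not overlap, and the log2 change was -4.45 (SE 0.95, limma adjusted p 0.0186). The call was lost without WT replicate 3 (0.0524), Runx1 KO replicate 2 (0.0613) or Runx1 KO replicate 3 (0.0646).

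Ikzf3 (ENSMUSG00000018168, chr11:98464902-98546031, minus strand) encodes Aiolos, the Ikaros relative that rises as B-cell precursors mature. It had 2906, 753 and 1345 normalised reads over the WT-labelled libraries and 248, 60.5 and 55.7 in those labelled Runx1 KO. The 2 sets of libraries were 3.04-fold apart at their nearest, and the log2 change was -3.91 (SE 0.68, limma adjusted p 0.00935).

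Bach2 (ENSMUSG00000040270, chr4:32238804-32586108, plus strand) encodes a repressor that holds back plasma cell and myeloid genes in B cells. It had 2723, 530 and 1055 normalised reads under the label WT and 243, 180 and 245 under the label Runx1 KO. Unlike Ebf1 or Pax5, it did not stand higher in Runx1 KO replicate 1: that library held 1.14 times the mean of the other two. The log2 change was -2.38 (SE 0.53, limma adjusted p 0.0216), and the call was lost without WT replicate 3 (0.0553), Runx1 KO replicate 2 (0.0808) or Runx1 KO replicate 3 (0.0597).

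Lef1 (ENSMUSG00000027985, chr3:131110471-131224356, plus strand) encodes a WNT-pathway factor of lymphoid precursors and was the scarcest of the 10. It had 247, 80.7 and 138 normalised reads over the WT-labelled libraries and 75.3, 8.92 and 3.98 in those labelled Runx1 KO. The lowest WT library and Runx1 KO replicate 1 were almost level, 1.07-fold apart. The log2 change of -3.18 (SE 0.97) missed the threshold, with a limma adjusted p of 0.0557. Without Runx1 KO replicate 1 it was -4.33 with an adjusted p of 0.00435, and with a pseudocount of 5 in place of 1 the adjusted p was 0.0499.

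The regulators that fell together are shown here by the 250 bases before a RefSeq start site (GRCm38.p6, the build family that the submitters' processing notes name as GRCm38). A window was found for 9 of the 10 genes, 14 windows in all, of which 9 overlapped no exon of GENCODE M21. The 4 printed are those of Ebf1, Pax5, Pou2af1 and Spib, which had the largest falls; all letters run 5′ to 3′ on the strand of the gene, and capitals mark the motif matches described after them.
Ebf1, chr11:44619978-44620227, plus strand: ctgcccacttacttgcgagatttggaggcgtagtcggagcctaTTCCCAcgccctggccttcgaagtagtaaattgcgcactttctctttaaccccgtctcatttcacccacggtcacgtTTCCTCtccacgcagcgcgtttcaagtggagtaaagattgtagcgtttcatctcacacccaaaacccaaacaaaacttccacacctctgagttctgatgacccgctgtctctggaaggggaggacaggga
Pax5, chr4:44710695-44710944, minus strand: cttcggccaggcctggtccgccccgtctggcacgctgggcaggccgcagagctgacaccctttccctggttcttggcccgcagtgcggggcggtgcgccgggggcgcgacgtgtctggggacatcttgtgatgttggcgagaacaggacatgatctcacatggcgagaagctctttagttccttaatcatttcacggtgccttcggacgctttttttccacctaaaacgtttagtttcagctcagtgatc
Pou2af1, chr9:51213440-51213689, plus strand: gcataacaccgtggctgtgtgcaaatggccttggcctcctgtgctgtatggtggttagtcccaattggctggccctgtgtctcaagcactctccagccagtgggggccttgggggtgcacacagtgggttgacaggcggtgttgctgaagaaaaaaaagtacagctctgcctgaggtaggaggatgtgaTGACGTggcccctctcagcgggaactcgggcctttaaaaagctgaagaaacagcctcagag
Spib, chr7:44532072-44532321, minus strand: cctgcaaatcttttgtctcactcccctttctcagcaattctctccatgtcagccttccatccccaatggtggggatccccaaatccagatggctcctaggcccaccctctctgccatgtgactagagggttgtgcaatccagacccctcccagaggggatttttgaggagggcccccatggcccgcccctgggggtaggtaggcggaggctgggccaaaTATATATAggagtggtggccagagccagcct
Matches were sought on both strands for 9 motifs. The RUNX letters TGTGGT or TGCGGT, which occur in 18.6% of 32817 windows of the same length across the RefSeq promoters, were in 0 of these 4 windows. They occurred at a single place in the other Ebf1 window, which overlaps an annotated exon and is not printed, starting 12 bases before its start site. The printed Ebf1 window holds the PU.1 and SPI-B letters GAGGAA on the opposite strand, from 130 to 125 bases before the start (23.3% of all windows have them). It also holds the Ikaros letters TGGGAA on the opposite strand, from 207 to 202 bases before the start (21.6%). The Pax5 window holds none of the 9 motifs. The Pou2af1 window holds the CRE letters TGACGT from 61 to 56 bases before the start (6.5%), and the Spib window holds 2 overlapping TATATA matches, the nearer from 29 to 24 bases before the start (TATAAA or TATATA, 15.6%). The CRE and TATA motifs were added after the sequences had been seen. The palindromic EBF1 motif (0.8%) was found in the Foxo1 window, from 92 to 83 bases before the start, and in none of the 4. The octamer ATGCAAAT (1.6%), the E-boxes CAGGTG or CAGCTG (27.7%) and the TCF/LEF letters CTTTGA (13.8%) were likewise in none of the 4. These are matches of letters in short windows and say nothing of binding.

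Levels of different genes were compared per kilobase of annotated exon. Under the label WT, Ikzf1 (2290 ± 266 normalised reads per kilobase, SD, n = 3) stood above Tcf3 (1468 ± 147). Next came Spib (1184 ± 821) and Pou2af1 (844 ± 600), then Pax5 (363 ± 276), Ikzf3 (191 ± 127), Bach2 (144 ± 115), Foxo1 (133 ± 84.1) and Ebf1 (113 ± 104), with Lef1 lowest (17.7 ± 9.63). Ikzf1 over Tcf3 and Ebf1 over Lef1 had ranges that did not overlap. The ranges of neighbours overlapped at every step from Tcf3 down to Ebf1, but within each library the steps from Spib to Pou2af1, Pax5, Ikzf3 and Bach2 held in 3 of 3. Tcf3 was above Spib in 2 of 3 libraries, Bach2 above Foxo1 in 1 of 3 and Foxo1 above Ebf1 in 2 of 3.

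Under the label Runx1 KO the top of the order was the same and the rest was rearranged. Ikzf1 (1850 ± 57.6 normalised reads per kilobase) and Tcf3 (1378 ± 106) kept their places, and Foxo1, at 127 ± 4.57, moved from place 8 to place 3. Pou2af1 (57.7 ± 73.1), Spib (29.2 ± 33.8), Bach2 (22.4 ± 3.68), Pax5 (14.3 ± 19.4), Ikzf3 (13.9 ± 12.5), Ebf1 (5.7 ± 7.05) and Lef1 (3.35 ± 4.53) followed with overlapping ranges between all neighbours, and only Ikzf3 over Ebf1 and Ebf1 over Lef1 held within 3 of 3 libraries. Foxo1 lay at 122 to 130 normalised reads per kilobase in the same 3 libraries in which Ebf1 lay at 1.33 to 13.8.

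The regulators also varied together inside each group. WT replicate 1 was the highest WT library for all 10, and 8 of the 10 had the order replicate 1, then 3, then 2. WT replicate 1 exceeded the mean of the other two WT libraries 4.33-fold in Ebf1, 3.26-fold in Pax5, 2.91-fold in Spib and 2.64-fold in Foxo1, but only 1.21-fold in Ikzf1 and 1.18-fold in Tcf3. Among the libraries labelled Runx1 KO, replicate 1 held over 3 times the mean of the other two in 6 of the 10: 8.5 times for Ebf1, 11.7 for Pax5, 4.27 for Ikzf3, 9.11 for Pou2af1, 11.7 for Lef1 and 7.04 for Spib. In Foxo1, Ikzf1, Tcf3 and Bach2 that ratio was between 0.917 and 1.14.

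A gene of B-lineage cells served as a yardstick inside each library. Cd79a, which encodes a chain of the B-cell receptor and is a target of EBF1 and PAX5, had 5934, 1410 and 2489 normalised reads under the label WT and 381, 33.7 and 31.8 under the label Runx1 KO, a 186-fold range. It was chosen as yardstick after its values had been seen, and it is the gene most similar to Pax5 of the 12268 compared below, so the steadiness of the Pax5 ratio is in large part set by that choice. Over that range Pax5 stayed between 0.824 and 1.01 normalised reads per Cd79a read, a 1.22-fold span. Spib (0.514 to 1.07), Ebf1 (0.24 to 0.559) and Pou2af1 (0.621 to 1.59) spanned 2.08-fold, 2.33-fold and 2.57-fold. Spib lay at 1.02 to 1.07 under the label WT and lower, at 0.514, 1.0 and 0.687, in Runx1 KO replicates 1 to 3. Pax5 was also lower there (0.824 to 0.875 against 0.925 to 1.01). Pou2af1 was higher (0.853 to 1.59 against 0.621 to 0.698), and the ranges of Ebf1 overlapped (0.354 to 0.559 against 0.24 to 0.38). In Runx1 KO replicates 2 and 3 these ratios rest on 12.9 to 50.7 normalised reads of a regulator over 31.8 to 33.7 of Cd79a; their counting error was not computed, and small differences between them are not read as differences.

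Other regulators parted from the yardstick. Ikzf3 ran from 0.49 to 0.54 per Cd79a read under the label WT and 0.651 in Runx1 KO replicate 1, but reached 1.79 and 1.75 in Runx1 KO replicates 2 and 3. Bach2 ran from 0.376 to 0.459 in WT and was 0.637, 5.35 and 7.69 in Runx1 KO replicates 1 to 3. Lef1 ran from 0.0417 to 0.0573 in WT and was 0.198, 0.265 and 0.125 in Runx1 KO replicates 1 to 3. In replicates 2 and 3 its ratio rests on only 8.92 and 3.98 normalised reads of Lef1. Foxo1 kept to 0.333 to 0.406 over the 3 WT libraries, in which it rose and fell with Cd79a, and then stood at 2.97, 32.9 and 33.1. Ikzf1 and Tcf3 did not follow Cd79a in either group, with WT ratios from 2.53 to 8.86 and from 1.11 to 3.96. In RNA from a mixed fraction, fewer B-lineage cells and less RNA per cell cannot be told apart, and this holds for each fall given here.

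**Figure D2:**
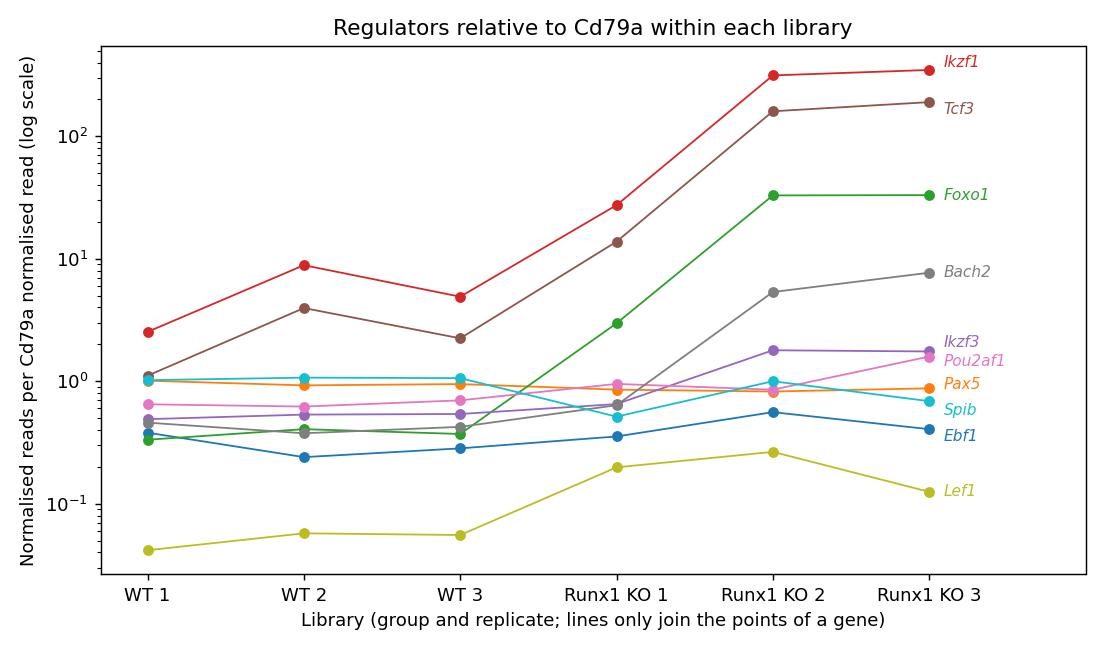
Normalised reads of each regulator per normalised read of Cd79a (log axis) in the 6 libraries; the lines only join the points of a gene. Pax5 stayed between 0.824 and 1.01, while Foxo1 went from at most 0.406 in the libraries labelled WT to 33.1 in Runx1 KO replicate 3.

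The genes most like each falling regulator were found by Pearson's r of log2 values over the 6 libraries, among 12268 other tested genes with a mean of at least 50. With 6 points in 2 groups that differ, r mostly follows the split between the groups, and it is given as a description. For Pax5 they were Cd79a (r = 0.9999), Fgr (0.9994) and Sept10 (0.9992). For Pou2af1 they included Iglc2 (0.9987) and Ighm (0.9971), which encode an immunoglobulin light chain constant region and the heavy chain of IgM. For Spib they were Ptpn6, Ly6d and Fcmr (0.9998 to 0.9989), and for Ikzf3 they were Emp3, Chst3 and Ly6d (0.9984 to 0.9981). For Ebf1 they were H2-DMb2, Fam214b and Slc44a2 (0.9996 to 0.9974). Bach2 was nearest to Yipf1, Cdkn2aip and Fmnl2 (0.9980 to 0.9961), and Ikzf1 to Commd6, Ddit3 and Mindy2 (0.9920 to 0.9911). Among Ebf1, Pax5, Ikzf3, Pou2af1 and Spib the 10 pairwise r ran from 0.979 to 0.996.

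The relatives and partners of the 10 regulators changed less. Of 27 such genes in 8 lists, 21 were tested: 3 fell, 4 rose and 14 did not pass, so 33.3% passed in either direction, beside 21.9% of all tested genes. Their median log2 change was -0.15. The lowest log2 change among the 21 was that of Id3 at -2.20, whereas 6 of the 10 regulators passed with a change of -2.38 or lower. The difference between a regulator and its relatives was not tested.

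**Figure D3:**
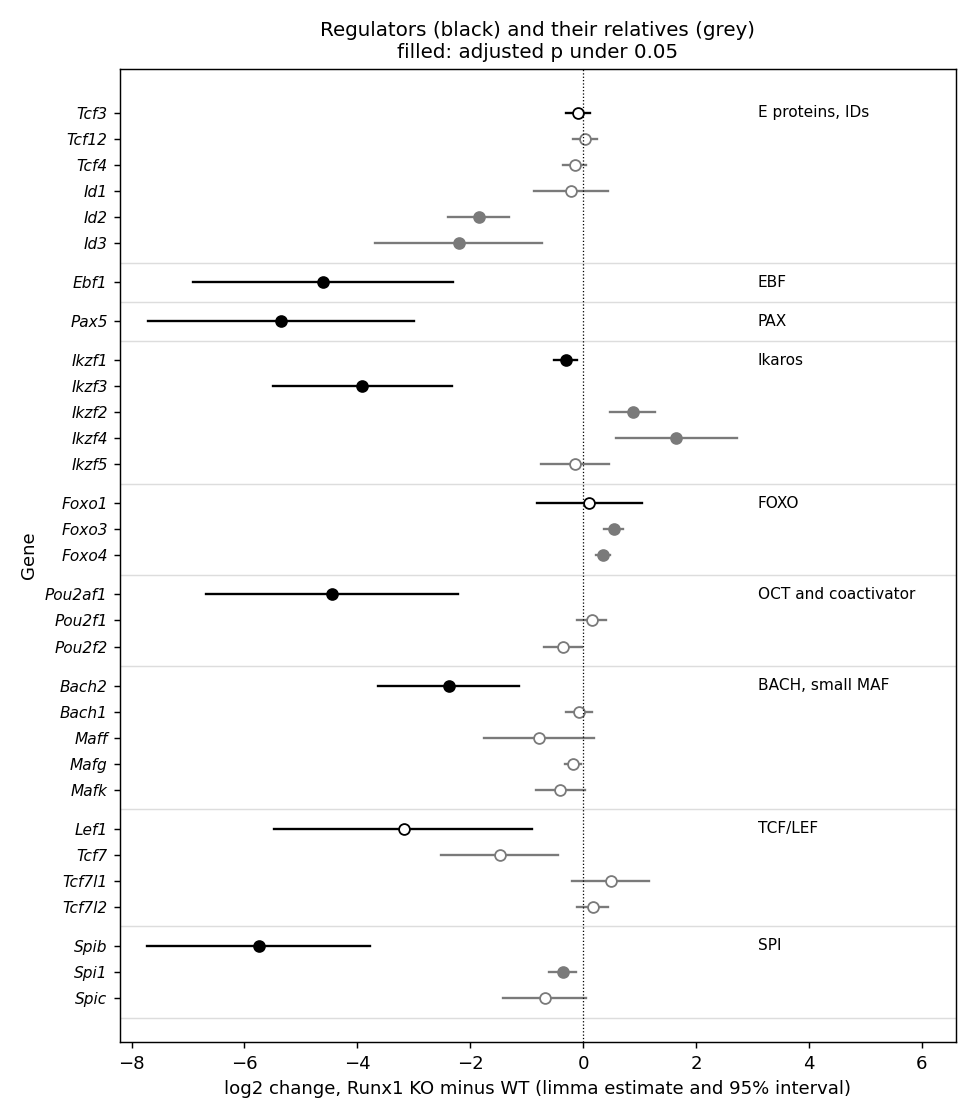
Log2 change from WT to Runx1 KO with its 95% interval from limma, for the 10 regulators (black) and their tested relatives and partners (grey); filled points passed an adjusted p of 0.05. Ikzf3 lies at -3.91 and its relative Ikzf2 at 0.88; Spib lies at -5.75 and its relative Spi1 at -0.36.

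In the Ikaros family, Ikzf2 (Helios) rose, from 429, 358 and 565 normalised reads under the label WT to 796, 891 and 759 under the label Runx1 KO (log2 change 0.88, SE 0.17, limma adjusted p 0.0131). It lost its call only without Runx1 KO replicate 2 (0.0588). Ikzf4 rose from very low levels of 4.04 to 10.9 to 14.9 to 33.5 (1.65, SE 0.46, adjusted p 0.042) and passed in 2 of the 6 leave-one-out fits. Ikzf5 did not pass. With all libraries kept, Ikzf3 and Ikzf1 passed as lower and Ikzf2 and Ikzf4 as higher. The calls of Ikzf1 (0 of the 6 leave-one-out fits) and Ikzf4 (2 of 6) depended on the libraries kept.

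Both FOXO relatives that were tested rose, by small and closely repeated amounts. Foxo3 had 3410, 2910 and 3005 normalised reads over the WT-labelled libraries and 4542, 4522 and 4540 over the Runx1 KO-labelled ones (log2 change 0.55, SE 0.07, limma adjusted p 0.00379). Foxo4 had 1366, 1352 and 1337 against 1747, 1720 and 1725 (0.36, SE 0.05, adjusted p 0.00632). Both passed in all 6 leave-one-out fits.

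Among the E proteins, Tcf12 and Tcf4 did not pass (log2 changes 0.04 and -0.15). Of the inhibitors of the ID family, which bind E proteins and keep them off DNA, Id2 and Id3 fell and Id1 did not pass. Id2 had 1623, 1585 and 1317 normalised reads under the label WT and 609, 355 and 330 under the label Runx1 KO (log2 change -1.85, SE 0.23, limma adjusted p 0.00346), and it passed in all 6 leave-one-out fits. Id3 fell by 2.20 on the log2 scale (SE 0.63, adjusted p 0.0468) with groups that overlapped, and it passed only without Runx1 KO replicate 1. Id1 had a log2 change of -0.21.

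Spi1, which encodes PU.1 and is expressed across myeloid progenitors, fell slightly (log2 change -0.36, SE 0.10, limma adjusted p 0.0403), and among leave-one-out fits it passed only without Runx1 KO replicate 1; it also missed with library totals as the scaling. Spic did not pass (-0.68). The octamer-binding partners of OBF-1, Pou2f1 and Pou2f2, did not pass (0.15 and -0.35), nor did Bach1 (-0.07) or the small MAF genes Maff, Mafg and Mafk (-0.78, -0.18 and -0.40). Of the relatives of Lef1, Tcf7 had a log2 change of -1.48 with a limma adjusted p of 0.0523, while Tcf7l1 and Tcf7l2 had 0.49 and 0.17 and did not pass.

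Of 10 other regulators of early B lymphopoiesis, 2 fell, 2 rose and 6 did not pass, with a median log2 change of -0.03. Irf4, which acts at the pre-B to B transition, had 5487, 703 and 1213 normalised reads over the WT-labelled libraries and 174, 34.7 and 52.7 over the Runx1 KO-labelled ones (log2 change -4.59, SE 0.85, limma adjusted p 0.0117). Ets1, an ETS factor of lymphocytes, fell from 4693, 3154 and 3176 to 1046, 613 and 547 (-2.35, SE 0.26, adjusted p 0.00279). Both kept their calls in the 6 leave-one-out fits. Myb rose by 0.53 (SE 0.09) and Zbtb7a by 0.27 (SE 0.08); Zbtb7a passed in 1 of those 6 fits. Bcl11a, Mef2c, Sox4, Irf8, Aff3 and Hhex did not pass, with log2 changes from -0.31 to 0.70.

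Most of the genes listed as activated by EBF1 and PAX5 fell. Of 15 such genes, which also mark B-lineage cells, 11 fell (73.3%, beside 11.3% of all tested genes) and 0 rose. The other 4 (Blnk, Vpreb1, Vpreb2 and Igll1) did not pass, and the median log2 change of the 15 was -2.87. The largest falls were those of Blk (-5.41, SE 0.67), Cd79a (-5.18, SE 0.99) and Fcrla (-4.96, SE 0.88), with limma adjusted p values from 0.00346 to 0.0130. The count was 8 without WT replicate 3, 6 without Runx1 KO replicate 3, 5 without Runx1 KO replicate 2 and 15 without Runx1 KO replicate 1. The 15 genes summed to 9296 to 29692 normalised reads under the label WT but only to 5187 (replicate 1), 2610 and 2647 under the label Runx1 KO, and Vpreb2 was at 0 in the last of these. Of 5 genes that PAX5 represses, 0 rose in limma (0 at an unadjusted p under 0.05): Notch1 (-0.72, SE 0.17) and Grap2 (-1.38, SE 0.33) fell and Csf1r, Flt3 and Cd28 did not pass. Only 10.6% of all tested genes rose, so 0 of 5 is near that share and cannot show whether repression by PAX5 was lost. Without WT replicate 2, Runx1 KO replicate 2 or Runx1 KO replicate 3, 0 of these 5 fell (and 1 rose without the last), without Runx1 KO replicate 1 the count was 4, and without WT replicate 1 or WT replicate 3 it was 1.

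Of 5 targets of FOXO1 and E2A, Rag1 and Il7r fell and 3 did not pass, among them Rag2 and Klf2. Rag1, a recombinase gene of lymphocyte precursors, had 4780, 493 and 699 normalised reads under the label WT and 328, 54.5 and 78.6 under the label Runx1 KO (log2 change -3.38, SE 0.97, limma adjusted p 0.0468). It kept its call only without Runx1 KO replicate 1 among the leave-one-out fits. Il7r, the receptor for the cytokine that B-cell precursors need, had 704, 190 and 407 against 178, 59.5 and 56.7 (-2.15, SE 0.58, adjusted p 0.0399), and it passed in 2 of those 6 fits, without WT replicate 2 or Runx1 KO replicate 1.

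Markers of the stages of the lineage did not move alike. Among 5 markers of early lymphoid progenitors, Dntt rose (1362, 1079 and 1117 normalised reads against 2114, 1696 and 1511; log2 change 0.57, SE 0.14, limma adjusted p 0.0311), Ly6d (-4.99, SE 0.76) and Il7r fell, and Flt3 and Satb1 did not pass. Dntt lost its call without WT replicate 2, WT replicate 3 or Runx1 KO replicate 2. Of the 5 early markers, 60.0% passed in either direction, beside 21.9% of all tested genes. Of 5 markers of mature B cells, 4 fell, led by Ms4a1 (4035, 941 and 1364 against 82.6, 21.8 and 9.95; -5.97, SE 0.80, adjusted p 0.00432), and Cd40 did not pass; without WT replicate 3, Runx1 KO replicate 2 or Runx1 KO replicate 3 the count was 2. With all libraries, 80.0% of the mature markers fell, beside 11.3% of all tested genes. The summed level of these 5 markers was 1530 to 5749 under the label WT and 112.4 to 449.8 under the label Runx1 KO. None of the 5 was at 0 in any library. The part that a changed share of mature B cells in the sorted fraction played in the falls of Ebf1, Pax5 and the other regulators was not tested.

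Markers of other cells that express some of these regulators were set beside them. The 10 T-cell markers summed to 1045 to 1366 normalised reads in the libraries labelled WT. They summed to 1181 in Runx1 KO replicate 1, inside that range, and to 353.8 and 384.9 in Runx1 KO replicates 2 and 3. Of the 9 tested, 0 passed in limma, 2 had an unadjusted p under 0.05, and 7 passed without Runx1 KO replicate 1. With all libraries, 21.9% of all tested genes passed in either direction. None of the 9 was at 0 in any library, and Cd3e, which defines T cells, had 76.2, 31.3 and 25.9 normalised reads under the label WT and 74.3, 7.93 and 9.95 under the label Runx1 KO. Lef1 and Bach2 are also expressed by T cells, and the part of T cells in their values was not tested.

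Of 8 markers of plasmacytoid dendritic cells, cells that also use Spib, 37.5% passed in either direction, beside 21.9% of all tested genes. Among these 8 markers, Klk1 and Cox6a2 fell, Runx2 rose and 5 did not pass. Their sum ran from 5977 to 6555 under the label WT and from 5477 to 7469 under the label Runx1 KO, and is mostly Lair1, Runx2 and Bst2, which other cells express as well. Siglech, which defines these cells, had 532, 398 and 562 normalised reads against 331, 27.7 and 17.9 (log2 change -3.13, SE 0.98, limma adjusted p 0.0609). Klk1 was at 0 in Runx1 KO replicate 3. Without any single library other than Runx1 KO replicate 1, 0 of the 8 fell, and without that library 5 did. The rise of Runx2 passed in 1 of the 6 leave-one-out fits. Of 7 NK-cell markers, none of them at 0, Nkg7 alone passed (log2 change -0.50), and 6 fell without Runx1 KO replicate 1. With all libraries that is 14.3% of the 7, beside 21.9% of all tested genes in either direction. Of 5 genes of c-Kit+ progenitors, Mpo did not pass and the other 4 rose, among them Kit by 0.60 (SE 0.07) and Cd34 by 0.47 (SE 0.11). Kit passed in all 6 leave-one-out fits and Cd34 in 3. Of the 5 progenitor genes 80.0% rose, beside 10.6% of all tested genes. The 5 genes of c-Kit+ progenitors summed to 98513 to 108429 under the label WT and 105717 to 111289 under the label Runx1 KO. That sum is mostly Mpo, at 66191 to 81448 over the 6 libraries, so it mainly follows that gene and hides the rises of the other 4. The part of these cells in the values of the regulators was not tested.

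**Figure D4:**
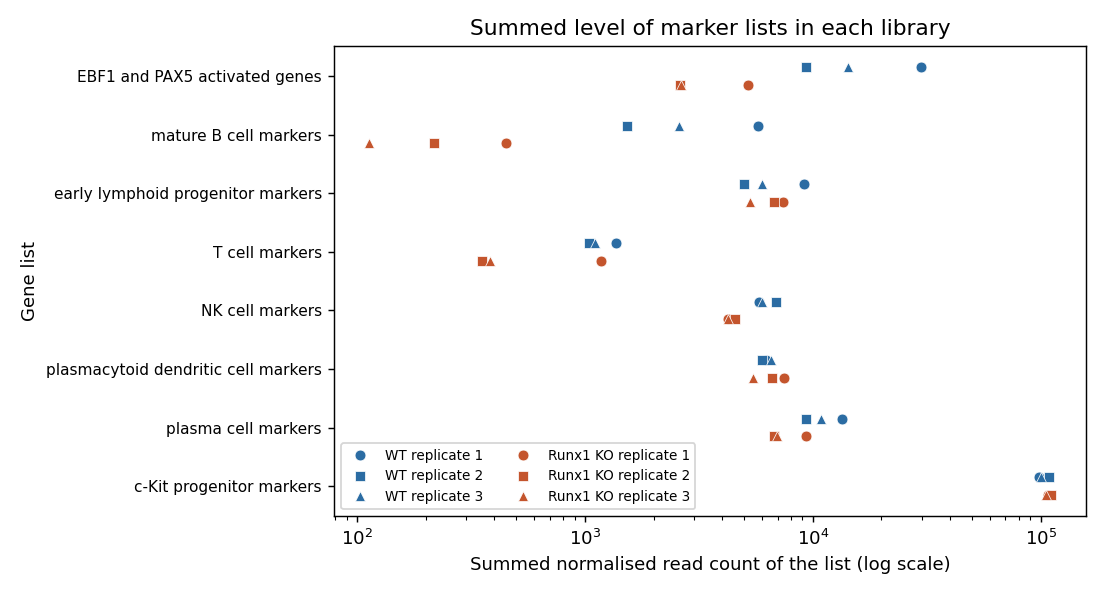
Summed normalised read count (log axis) of each marker list in the 6 libraries, with colours for the group and symbols for the replicate. Runx1 KO replicate 1 lies at 1181 in the T-cell list, inside the WT range of 1045 to 1366, but at 449.8 in the list of mature B-cell markers, below the WT range of 1530 to 5749. The sum of the NK-cell list is mostly Nkg7, and that of the c-Kit+ progenitor list mostly Mpo.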

How the data were processed

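Poly-A RNA of c-Kit+ bone marrow cells was sequenced in 3 WT and 3 Runx1 KO libraries. The authors deposited a signal per gene and library; from the values, it is reads per gene divided by a size factor, since 100% of values in each file are whole multiples (tolerance 0.001) of its smallest positive value. Per the submitters' processing notes, HISAT2 and HTSeq 0.9.1 and the build mm10 (GRCm38) were used; their roles, the annotation and the use of strand are not given in the sources used here. Overlapping or antisense genes may therefore share reads. No gene with fewer than 10 reads over the 6 libraries is listed. The floor of 3 reads is 2.878 to 3.138 normalised reads and covers counting error only.

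Genes passed filterByExpr of edgeR 4.0.16 on the normalised reads (minimum count 10, minimum total 15), leaving 15410. limma 3.58.1 (R 4.3.3) was fitted to log2(value + 1), which understates changes of weakly expressed genes. The fit used lmFit and eBayes with trend, two-sided, with Benjamini-Hochberg over all tested genes and a threshold of 0.05. It was tested on simulated data whose spread between libraries was set below that of Ebf1 or Pax5 here. That test therefore does not cover genes with such a spread. Intervals are at 95%. With 3 libraries against 3, no exact permutation test of a single gene can pass 0.05, so none is given.

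Symbols come from a table of Ensembl identifiers (20077 of 20097 matched), and exon lengths and exons from GENCODE M21 (GRCm38). Alternatives were other pseudocounts, scalings and filters, a replicate block, and fits leaving out libraries. Named genes were the 10 regulators, Runx1, the defining markers, the genes past the threshold in each list (the 4 with the largest change where there were more) and, for each regulator past the threshold, its 3 most similar genes; the genes not past the threshold in a list are named to complete its count. Some genes that this rule names are not reported here. The regulators and lists were chosen with earlier results of these data known.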

Additional observations from a re-analysis of the deposited data

How the results depend on the processing

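With all libraries kept, the count of falling regulators ran from 6 (library totals) to 8 (pseudocount 5), beside 7, and the count of rising ones was 0 throughout. The count of all genes past the threshold ran from 3337 to 3843, beside 3370. Library totals moved the median of all genes by 0.08 on the log2 scale and the split to 2383 higher and 1372 lower, against 1631 and 1739; the 6 regulators other than Ikzf1 kept their calls. Same-numbered libraries had deviations from their group means correlated at 0.287, 0.129 and -0.01, and the labels state no shared animal or batch, so the numbers were not taken as pairs. With the replicate number as a block, 8 regulators fell (Lef1 added, limma adjusted p 0.0136) and 3843 genes passed; it changed no other call of the 10. Not every library correlated best with its own number. Omission of single libraries, which also makes a group smaller, gave 3 to 7 falling regulators and 1367 to 3597 genes. Without WT replicate 1 and Runx1 KO replicate 1, added after seeing the data, 7 regulators fell, with Lef1 in and Ikzf1 out, and 3785 genes passed. Of the 60 single-gene values with all libraries, 57 kept their side of the threshold, 1 was weaker and 2 stronger; of the 60 with a library left out, 43 kept it, 15 were weaker, 1 was stronger and 1 reversed. The reversals were in genes that never passed: Foxo1, between -0.30 (without WT replicate 2) and 0.59 (without WT replicate 1) with single libraries left out, and Tcf3, between -0.15 and -0.01 with single libraries left out and at 0.033 without WT replicate 1 and Runx1 KO replicate 1; the cause was not tested. The planned count tests of edgeR and DESeq2 were not run: the deposited values are reads divided by a size factor, and the recovered whole reads passed the check required for a count test in only 2 of the 6 libraries, the size factors of the other 4 being too near 1. Depth limits Lef1 most, at 3.98 normalised reads in Runx1 KO replicate 3, close to the floor of 3 reads.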

Other observations

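Further lists bear on what BACH and LEF/TCF factors regulate. Of 6 genes that BACH factors repress through MAF elements, Hmox1, which encodes heme oxygenase, fell (log2 change -1.12, SE 0.31, limma adjusted p 0.0439), and so did the ferritin light chain gene Ftl1 (-0.50, SE 0.07, adjusted p 0.0049). Gclm, which encodes a subunit of the enzyme that starts glutathione synthesis, rose by 0.66 (SE 0.11, adjusted p 0.0088), and Nqo1, Fth1 and Prdm1 did not pass. Hmox1 had 1923, 3810 and 3525 normalised reads under the label WT and 1201, 1055 and 1962 under the label Runx1 KO, with overlapping groups, and passed in 2 of the 6 leave-one-out fits. Ftl1 and Gclm passed in all 6.

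Of 4 tested genes that LEF/TCF factors activate, Myc rose (5517, 6451 and 7402 normalised reads against 8650, 10911 and 10340; log2 change 0.63, SE 0.13, limma adjusted p 0.0159), and Axin2, Znrf3 and Ccnd1 did not pass. Myc lost its call without Runx1 KO replicate 2 or Runx1 KO replicate 3 (adjusted p up to 0.0657). Of 5 tested plasma cell markers, Irf4 fell, and Sdc1, which encodes syndecan-1, rose from 459, 220 and 347 to 1107, 726 and 805 (1.40, SE 0.28, adjusted p 0.0149), a call kept in all 6 leave-one-out fits. Jchain, Prdm1 and Xbp1 did not pass.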
